A study of Mus musculus with 3 samples.

Results

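DNA methylation in mammals is written, read and erased by a small set of proteins, and 9 of the genes that encode them were looked for here in RNA of cells sorted for or against a reporter of the interneuron lineage. The writers were Dnmt1, which copies methylation onto the daughter strand after replication, Dnmt3a and Dnmt3b, which methylate new sites, and Dnmt3l, a cofactor without catalytic activity of its own that is known from germ cells and pluripotent cells. The readers were Uhrf1, which binds hemimethylated CpG behind the replication fork and brings Dnmt1 there, and Mbd2, which binds methylated CpG and joins the NuRD chromatin remodelling complex. The erasers were Tet1, Tet2 and Tet3, which oxidise 5-methylcytosine. In the developing forebrain, dividing progenitors need Dnmt1 and Uhrf1 to keep their methylation, while Dnmt3a is known to be the main new-site methyltransferase of young neurons.

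The members were chosen by name, and a probe was counted where the mouse transcript accession on the array is paired with the gene in RefSeq. By this rule 8 of the 9 genes had a probe, with 15 probes in all, out of 20145 named genes and 26582 named probes. No probe was paired with Tet1 in this way, and Tet1 RNA is not analysed here. Since 26582 of 55681 probes could be named, a probe for it may be among the rest. Dnmt1, Dnmt3a and Dnmt3l had 1 probe each, Uhrf1, Mbd2 and Tet2 had 2, and Dnmt3b and Tet3 had 3. RNA was measured, and DNA methylation itself was not.

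There were 3 samples, each hybridised to 1 single-channel Agilent array, so no comparison has a replicate and none has a p-value. Cells positive (ES-Lhx6-GFP+, written GFP+ ES below) and negative (ES-Lhx6-GFP-, written GFP- ES) for the reporter were sorted by FACS from embryoid bodies made of J14 mouse ES cells (129S4/SvJae background, a single line carrying an Lhx6-GFP BAC and, per the labels, a 692-mCherry enhancer reporter), after 12 days of a differentiation towards the medial ganglionic eminence (MGE) with 100 ng/ml Dkk-1 and 6 nM SAG, a hedgehog pathway agonist. Whether both were sorted from the same aggregates is not stated. MGE-GFP+ cells were sorted from the MGE of Lhx6-GFP BAC transgenic embryos (CD-1 background) at embryonic day 12.5 and were not cultured. GFP in each case reports the Lhx6 transgene, so GFP- cells are defined only by lack of that reporter. The comparison of GFP+ ES with GFP- ES cells asks how cells with the reporter differ from the mixed rest after the same 12 days of culture. It does not follow cells as Lhx6 comes on. The comparison with MGE-GFP+ cells asks how near the cultured cells come to the embryonic ones. In bulk samples, fewer cells of a type and less RNA per cell cannot be told apart.

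The labels were checked against marker genes first. All 17 genes of an MGE and interneuron list were at least 2-fold higher in GFP+ ES than in GFP- ES cells. With each array set to its 50th percentile 14 were as much higher, and in the deposited values 17. They were led by Lhx8, a transcription factor of the MGE, with intensities of 213 in GFP- ES and 3471 in GFP+ ES cells. Lhx6 itself was 6.19-fold higher, with a log2 difference between 0.05 and 2.65 over the alternative settings. The labels give the ES cells as male and the MGE cells as female. Of 4 Y-linked genes, Ddx3y and Kdm5d were not well above background on either ES array and read 195 and 254 on the MGE-GFP+ array. Eif2s3y was well above background on all 3 arrays, at 388, 331 and 591 in GFP- ES, GFP+ ES and MGE cells, and of the 2 Uty probes, both within the control range on all 3, 2 were well above background on the GFP+ ES, 1 on the MGE-GFP+ and 0 on the GFP- ES array. On the MGE-GFP+ array Xist, the X inactivation RNA, read 7797 against 12.2 and 14.6 on the ES arrays. The readings of Ddx3y and Kdm5d thus go against the labelled sex of all 3 samples, and that of Xist against neither label. The embryonic array also carried RNA of embryonic globins: 4 of 7 erythroid genes with a value were at least 2-fold higher than in GFP+ ES cells, led by Hbb-y, at least 176-fold higher, and 1, the erythroid transcription factor Klf1, was 9.04-fold lower. Mesenchymal genes went the other way. In each comparison with an ES array, all 7 that had a value were at least 2-fold lower on the MGE-GFP+ array. The 7 were not the same genes, as Foxc1 had no value against GFP+ ES cells and Lum none against GFP- ES cells. The summed intensity over the list was 5048 in GFP- ES, 2974 in GFP+ ES and 195 in MGE-GFP+ cells. Against GFP+ ES cells, 4 of the mesenchymal genes were at least 2-fold lower both with the 50th percentile and in the deposited values. The part of these RNAs in the results below was not tested.

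Depth on an array is its signal over background. Well above background were 80.3% of the probes on the GFP- ES, 90.6% on the GFP+ ES and 77.1% on the MGE-GFP+ array. The arrays also differed in what their 106 control probes read, which match no mouse gene: 34, 86 and 34 of them passed the background call, and their 95th percentile was 208, 377 and 152 intensity units. A mouse probe below that value is here called within the control range. All 15 member probes were well above background on all 3 arrays, and 0 were saturated or had an outlier flag. Fold changes are on a log2 scale after the 75th percentile of each array was set to 0, whereas intensities are printed unscaled, as the geometric mean of the probes where a gene on a list has several. Probes spotted several times on an array varied with an SD of 0.14 log2 units, which for a difference between 2 arrays gives 2 SD of 0.40, or 1.32-fold, a floor for technical error that leaves out all variation between cultures or embryos. The SD was 0.20, 0.17 and 0.20 on the GFP- ES, GFP+ ES and MGE-GFP+ arrays for repeated probes within the control range. For brighter ones it was 0.09, 0.09 and 0.08. The single band used below is thus narrow for dim probes and wide for bright ones. A gene was called different at 2-fold or more.

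**Figure D1:**
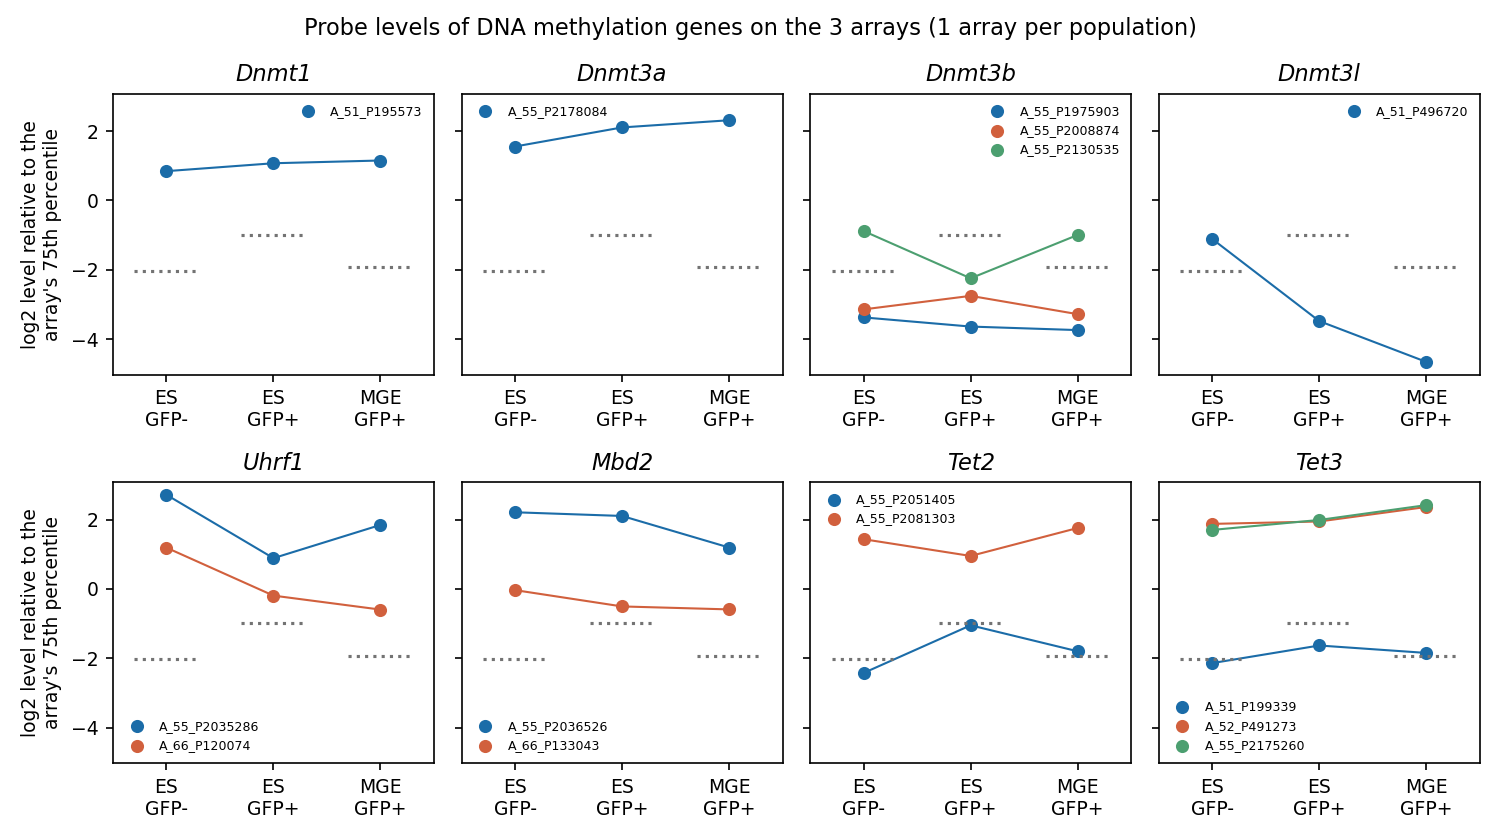
Log2 level of each member probe on the y axis, relative to the 75th percentile of its array, on the 3 arrays on the x axis, with 1 point per probe and array and 1 colour per probe within a panel. Dotted bars mark the 95th percentile of the control probes on each array. Dnmt3l and both Uhrf1 probes were highest on the GFP- ES array, the Dnmt1 and Dnmt3a probes lay well above the control bars on all 3, and levels of different probes cannot be set against each other.

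Of the members, Dnmt3l and Uhrf1 were at least 2-fold lower in GFP+ ES cells, and no other member passed 2-fold at the reported setting. Among the 8 members, 2 were at least 2-fold lower in GFP+ ES than in GFP- ES cells, where 6.40% of the 18655 genes compared were as much lower, and 0 were at least 2-fold higher, where 24.0% of genes were. This high share depends on the scaling. With each array set to its 50th percentile, 14.9% of genes were at least 2-fold higher and 13.7% lower, and in the deposited log2 values 6.0% and 6.88%. At 4-fold or more, 1 member (Dnmt3l) was lower, beside 1.75% of genes, and 0 were higher, beside 8.27%. The median difference of all genes was 0.27 log2 units, and over the 8 members it was -0.03.

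Dnmt3l showed the widest range of the members. Its probe (A_51_P496720, NM_019448) read 391 intensity units in GFP- ES, 67.3 in GFP+ ES and 23.0 in MGE-GFP+ cells. The signal stood above the control range only in GFP- ES cells, so the lower levels are near the background of their arrays and the folds that rest on them are loose. In GFP+ ES cells it was 5.15-fold lower than in GFP- ES cells (log2 difference -2.36), and 0.960% of genes had a lower value. Over 7 alternative settings the log2 difference lay between -3.44 and -1.68. In MGE-GFP+ cells it was 11.6-fold lower than in GFP- ES cells (-3.54, between -3.54 and -0.82 over the alternatives). Between the GFP+ populations it was 2.26-fold lower in the MGE cells (-1.18), and this sign turned to 0.57 with quantile normalization and to 0.48 in the deposited values, so no order of the GFP+ populations is given. The gene lies at chr10:78042287-78063622 (GRCm38.p6).

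Uhrf1 was lower on both of its probes. Its probe for NM_010931 (A_55_P2035286) read 5528 in GFP- ES, 1381 in GFP+ ES and 2068 in MGE-GFP+ cells, and the probe for NM_001111079 (A_66_P120074) read 1924, 654 and 382. All 6 values were above the control range, and on both probes GFP- ES cells were the highest. The probes were 3.54-fold and 2.60-fold lower in GFP+ ES than in GFP- ES cells, which for the gene gave 3.04-fold (log2 difference -1.60, between -2.05 and -1.55 over 8 alternatives). In MGE-GFP+ against GFP- ES cells the gene was 2.51-fold lower (-1.33), with 1.83-fold on one probe and 3.44-fold on the other. The probes disagreed on the GFP+ populations: in MGE-GFP+ against GFP+ ES cells the first was 0.96 log2 units higher and the second 0.40 lower. Its locus is chr17:56303337-56323486.

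**Figure D2:**
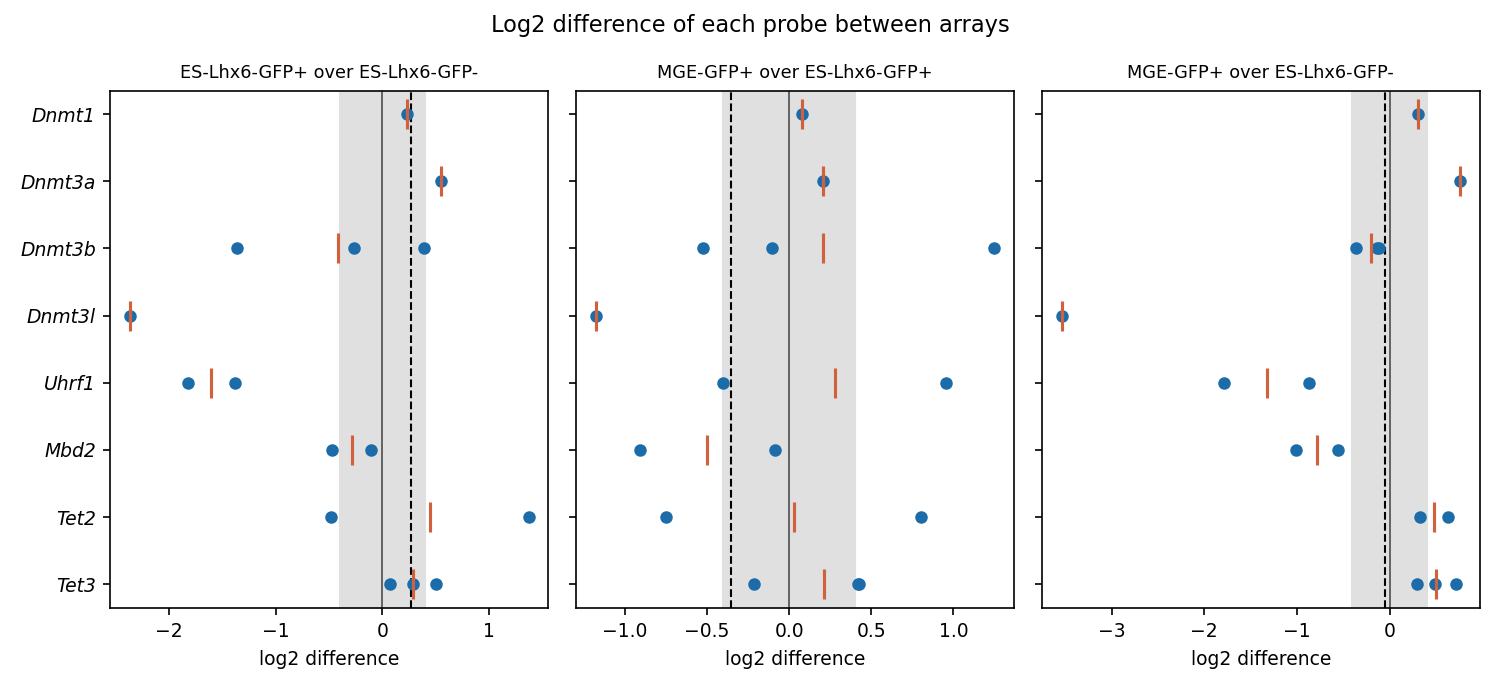
Log2 difference between arrays on the x axis, for each of the 15 probes (points) and the mean of each gene (vertical ticks), in the 3 comparisons. The grey band is 2 SD of repeat spots on either side of 0, and the dashed line is the median of all genes. Dnmt3l and Uhrf1 lie left of the band in both comparisons with GFP- ES cells, and probes of Dnmt3b and Tet2 fall on both sides of 0 in the 2 comparisons with GFP+ ES cells.

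Genes of DNA replication, the setting in which Uhrf1 acts, were also lower in GFP+ ES cells. On a replication and proliferation list, 15 of 29 genes with a value were at least 2-fold lower than in GFP- ES cells and 0 were higher, with a median log2 difference of -1.06 against 0.27 over all genes. The largest differences were in Mcm3, a subunit of the replicative helicase (2787 in GFP- ES and 205 in GFP+ ES cells, 12.1-fold lower), Top2a, a topoisomerase (8.91-fold lower), Rrm2, a subunit of ribonucleotide reductase (8.35-fold lower), and Ccnb1, a mitotic cyclin (8.16-fold lower). In GFP+ ES cells Mcm3, Top2a and Rrm2 lay within the control range, as did 2 of the 3 Ccnb1 probes. The summed intensity of the list was 35302 in GFP- ES, 12777 in GFP+ ES and 15792 in MGE-GFP+ cells. Above the control range were 27, 11 and 23 of its 30 genes. Uhrf1 had the same direction as these genes, and their part in its difference was not tested.

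Partners of maintenance methylation other than Uhrf1 were mostly under 2-fold. Of 8 such genes, 1 was at least 2-fold lower in GFP+ ES than in GFP- ES cells and 0 were higher, with a median of -0.29. The gene was Cdca7l, a relative of Cdca7 (2.81-fold lower, within the control range on both arrays). The lower count was 3 with the 50th percentile and 2 in the deposited values. Uhrf2, the paralog of Uhrf1, read 2709, 2326 and 1964 in GFP- ES, GFP+ ES and MGE cells, and its log2 difference between the ES populations was -0.04. Pcna, the sliding clamp that Dnmt1 binds, had a difference of -0.54, and Cdca7, which works with the remodeller Hells, of -0.88. In the MGE cells, against GFP+ ES cells, Cdca7 was 2.93-fold higher and Pcna 2.03-fold higher, whereas Lig1, the replicative DNA ligase, was 2.20-fold lower. In that comparison 3 genes were higher and 0 lower with the 50th percentile, and 1 and 1 in the deposited values, where Pcna (0.72) missed 2-fold. With GFP- ES cells as the reference only Cdca7l passed 2-fold in the MGE cells, 4.35-fold lower (log2 difference -2.12), within the control range on both arrays, and its difference in the deposited values was -0.83.

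Dnmt1 stayed under 2-fold in all 3 comparisons. Its probe (A_51_P195573, NM_010066) read 1514 in GFP- ES, 1570 in GFP+ ES and 1279 in MGE-GFP+ cells. The 3 values were close. Scaled, GFP+ ES cells were 0.23 log2 units above GFP- ES cells and MGE-GFP+ cells 0.08 above GFP+ ES cells, both within 2 SD of repeat spots. With other settings the ES difference lay between -0.22 and 0.31, so its sign is not settled while its size stayed under 2-fold. It is encoded at chr9:20907206-20959888.

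The promoters of Uhrf1 and Dnmt1 are shown beside that of Dnmt3l because Uhrf1 and Dnmt1 act together in maintenance and differed in signal, and Dnmt3l had the largest difference between the ES populations among the members. The windows are from RefSeq (GRCm38.p6), 300 bases each, from 250 before to 50 after a transcript start, and for each gene the window with most CpG is given, CpG in capitals. They lie at chr17:56304063-56304362 (Uhrf1, plus strand), chr9:20952574-20952873 (Dnmt1, minus strand) and chr10:78042037-78042336 (Dnmt3l, plus strand).
Uhrf1: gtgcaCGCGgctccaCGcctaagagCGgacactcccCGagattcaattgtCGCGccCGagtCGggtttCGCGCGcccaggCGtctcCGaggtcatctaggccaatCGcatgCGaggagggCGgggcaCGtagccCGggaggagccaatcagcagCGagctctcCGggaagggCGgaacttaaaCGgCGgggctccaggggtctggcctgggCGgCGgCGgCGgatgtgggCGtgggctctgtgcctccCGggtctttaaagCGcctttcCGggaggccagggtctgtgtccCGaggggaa
Dnmt1: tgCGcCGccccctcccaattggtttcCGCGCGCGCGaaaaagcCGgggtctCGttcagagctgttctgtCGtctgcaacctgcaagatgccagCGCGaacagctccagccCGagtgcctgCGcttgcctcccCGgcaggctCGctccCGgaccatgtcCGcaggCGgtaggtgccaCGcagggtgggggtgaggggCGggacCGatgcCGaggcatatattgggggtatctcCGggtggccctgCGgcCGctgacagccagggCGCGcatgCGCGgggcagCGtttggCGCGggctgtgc
Dnmt3l: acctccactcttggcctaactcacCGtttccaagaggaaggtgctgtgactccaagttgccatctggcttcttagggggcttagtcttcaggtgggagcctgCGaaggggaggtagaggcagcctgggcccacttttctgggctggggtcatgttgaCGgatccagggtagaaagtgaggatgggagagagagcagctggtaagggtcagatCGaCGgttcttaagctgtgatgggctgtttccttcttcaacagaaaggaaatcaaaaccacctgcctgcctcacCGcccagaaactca
The Uhrf1 and Dnmt1 windows hold 33 CpG each and the Dnmt3l window 6, against a median of 7 over all 32851 windows of the table. The other windows of Dnmt1 hold 2 and 12 CpG, that of Uhrf1 12 and those of Dnmt3l 4 and 3, while those of Dnmt3a hold 46, 47 and 18, that of Dnmt3b 30, that of Tet2 57 and that of Tet3 22. The windows were also searched on both strands for TTTCCCGC, TTTGGCGC, TTTCGCGC and TTTGCCGC, words that E2F factors of the S phase programme are known to bind. Of all windows, 2.26% held a match. The Uhrf1 window held TTTCGCGC starting 185 bases before the start, and the Dnmt1 window held TTTCGCGC on the strand opposite to the printed one, 219 bases before the start, and TTTGGCGC 33 bases after it. No match was found in the other windows of the members, which include that of Tet1. Mbd2 had no window to search. Uhrf1 and Dnmt1, which share such words, differed by 3.04-fold lower and 1.17-fold higher between the ES populations, and binding was not measured.

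Of the new-site methyltransferases, Dnmt3a was higher by less than 2-fold in both GFP+ populations at the reported setting. The Dnmt3a probe (A_55_P2178084, NM_007872) read 2476 in GFP- ES, 3209 in GFP+ ES and 2857 in MGE-GFP+ cells. Scaled, GFP- ES cells were the lowest, with GFP+ ES cells 1.46-fold (0.55 log2 units) and MGE-GFP+ cells 1.69-fold (0.76) above them. At the reported setting both differences passed 2 SD of repeat spots and neither reached 2-fold. Both kept their sign over the 8 alternatives (0.11 to 0.77 and 0.59 to 1.06), some of which could hardly move a gene with 1 probe. The difference between the ES populations was within 2 SD with the 50th percentile (0.11) and when centred on the median of all genes (0.28). In the 2 comparisons 37.6% and 15.8% of genes had a higher value than Dnmt3a. The GFP+ populations differed by 0.21, within 2 SD. Dnmt3a is encoded at chr12:3801559-3914443.

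For Dnmt3b the 3 probes, all assigned to NM_001003961, differed in sign at the reported scaling. Probe A_55_P2130535 read 458 in GFP- ES, 158 in GFP+ ES and 289 in MGE-GFP+ cells, a difference of -1.36 between the ES populations and of 1.25 between the GFP+ populations. Probe A_55_P2008874 read 95.9, 111 and 59.6, with differences of 0.39 and -0.53, and A_55_P1975903 read 81.7, 60.3 and 43.3, with differences of -0.26 and -0.10. The dimmer pair lay within the control range on all 3 arrays, and the brightest did so on the GFP+ ES array, so the level of this gene in GFP+ ES cells was not detectable above the control probes. The gene mean gave -0.41, 0.21 and -0.21 in the 3 comparisons. In the deposited values all 3 probes were lower in GFP+ ES than in GFP- ES cells (gene -0.82) and higher in MGE-GFP+ than in GFP+ ES cells (0.83), and quantile normalization gave -1.32 and 1.41 for the gene. In MGE-GFP+ against GFP- ES cells all 3 probes stayed within 2 SD, at -0.37, -0.14 and -0.11. The gene lies at chr2:153649411-153687730.

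**Figure D3:**
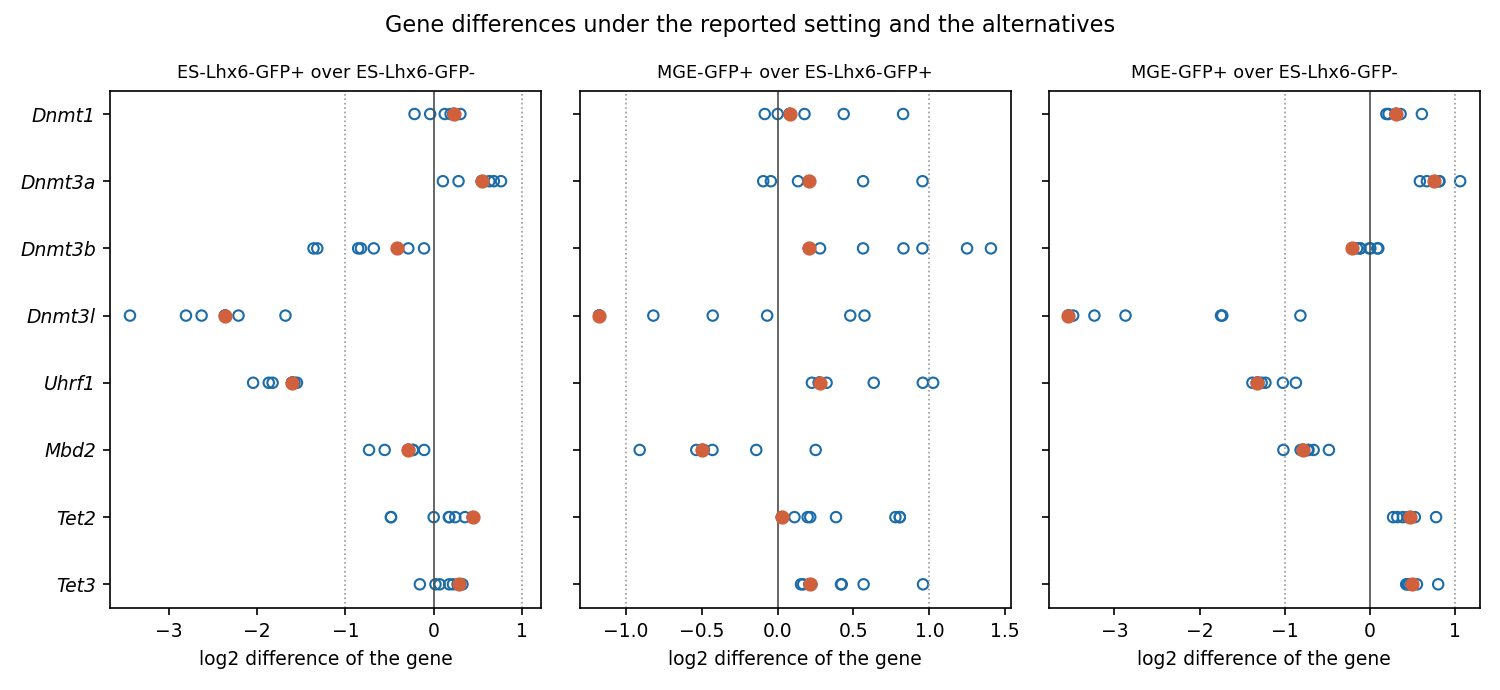
Log2 difference of each gene on the x axis at the reported setting (filled points) and under 9 alternatives (open circles, fewer where a gene had no value), in the 3 comparisons. Dotted lines mark 2-fold. Dnmt3l and Uhrf1 stay left of 2-fold in GFP+ ES over GFP- ES cells wherever they have a value, and Dnmt3l spreads over both sides of 0 in MGE-GFP+ over GFP+ ES cells.

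Partners of new-site methylation were mostly even between the ES populations. Of 10 such genes, 1 was at least 2-fold higher in GFP+ ES cells, 0 were lower, and the median was 0.17. The gene was Dppa3, a germ cell and early embryo factor that opposes Uhrf1 (3.52-fold or 1.82 log2 units higher, within the control range on both arrays, and 0.71 higher in the deposited values). Trim28, the corepressor of zinc finger proteins, had a difference of 0.01. Relative to GFP+ ES cells, in the MGE cells Setdb1, a histone H3K9 methyltransferase, was 2.10-fold and Kdm1b, a histone demethylase needed for oocyte methylation, 2.05-fold higher. In the deposited values 0 genes of the list passed 2-fold higher there (Setdb1 0.69, Kdm1b 0.85), and with the 50th percentile 5 did. Dppa3 was at least 11.0-fold lower there, again within the control range on both. With the same cells set against GFP- ES cells, Kdm1b was 2.89-fold and Setdb1 2.56-fold higher in the MGE cells, and Dppa3, within the control range on both arrays, was at least 3.13-fold lower (-1.65, and -0.82 in the deposited values).

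Dnmt3l is known as a gene of pluripotent cells, and a list of 18 such genes was read beside it. In GFP+ ES against GFP- ES cells 6 were at least 2-fold lower and 1 was higher, with a median of -0.82. The lower genes were led by Dppa5a (4732 and 185, 22.6-fold lower), Utf1 (5.89-fold), Lin28a (2.87-fold) and Tdgf1 (at least 2.83-fold), and the higher gene was Nr0b1 (at least 4.77-fold, within the control range). In GFP+ ES cells Dppa5a, Utf1 and Lin28a were within the control range too, as were 2 of the 3 Tdgf1 probes. Over the alternatives the smallest log2 differences were -3.48 for Dppa5a, -0.52 for Utf1, -0.08 for Lin28a and -0.07 for Tdgf1. In the deposited values 8 were lower and 0 higher, and with the 50th percentile 11 and 1. Pou5f1, which defines pluripotent cells, read 612 in GFP- ES, 192 in GFP+ ES and 59.2 in MGE-GFP+ cells. Above the control range were 13, 2 and 5 of the 18 genes. The summed intensity of the list, 261128, 233387 and 226135, came almost wholly from the 1 Nanog probe, whose reading of 251126, 230708 and 225105 was flat over the 3 arrays. It was thus about as bright in MGE-GFP+ cells, where Pou5f1 lay within the control range. Whether this probe reads Nanog RNA was not tested. The part of remaining pluripotent cells in the Dnmt3l difference was not tested.

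Markers of neural progenitors were also lower. Of the list, 12 of 15 radial glia genes were at least 2-fold lower in GFP+ ES than in GFP- ES cells and 1 was higher, with a median of -2.05. The higher gene was the matrix gene Tnc (2.54-fold, with both probes within the control range in GFP+ ES cells), whose difference of 1.34 was 0.33 in the deposited values and reached -0.56 over the alternatives. The glutamate transporter Slc1a3 was 13.6-fold, the filament gene Vim 10.4-fold, Sox9 8.32-fold and Hmga2 5.69-fold lower. In GFP+ ES cells Slc1a3, Sox9 and both Hmga2 probes lay within the control range, and Vim did not. Over the alternatives the smallest log2 differences of Slc1a3, Sox9 and Hmga2 were -2.46, -0.48 and -1.11. Of 8 oligodendrocyte lineage genes 5 were at least 2-fold lower, led by Olig1 (8.78-fold) and Sox10 (7.78-fold). Olig1 and Sox10 lay within the control range in GFP+ ES cells, and the log2 difference of Olig1 reached -0.76 over the alternatives. Of 15 genes of postmitotic neurons 4 were at least 2-fold higher and 0 lower, with Dcx, a microtubule protein of migrating neurons, 2.45-fold, the RNA binding protein gene Elavl3 2.15-fold, Stmn3 2.07-fold and the tau gene Mapt 2.02-fold higher. With the 50th percentile 0 of these 15 were at least 2-fold higher and 2 lower. These lists describe the populations from which the member values come, and their part in those values was not tested.

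Mbd2 was near even between the ES populations and lower in the embryonic cells. Its probes, both for NM_010773, read 3899 in GFP- ES, 3208 in GFP+ ES and 1318 in MGE-GFP+ cells (A_55_P2036526) and 824, 527 and 383 (A_66_P133043). MGE-GFP+ cells were the lowest on both. The gene was 1.22-fold lower in GFP+ ES than in GFP- ES cells (-0.29) and 1.72-fold lower in MGE-GFP+ than in GFP- ES cells (-0.79, between -1.01 and -0.48 over 8 alternatives). Between the GFP+ populations the probes gave -0.91 and -0.09, and the gene difference of -0.50 turned to 0.25 with the 50th percentile.

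The NuRD complex, which Mbd2 or its paralog Mbd3 can join, was heterogeneous. Of 13 subunit genes, 2 were at least 2-fold higher and 1 lower in GFP+ ES than in GFP- ES cells, with a median of -0.33. Chd5, the neuronal remodeller subunit, was 2.65-fold and Mta2 2.11-fold higher, while Chd4, the widely expressed remodeller, was 2.01-fold lower (12030 and 5289). These counts turned to 0 higher and 2 lower with the 50th percentile, and to 1 and 0 in the deposited values. Mbd3 read 806, 435 and 663 in GFP- ES, GFP+ ES and MGE cells. In MGE-GFP+ against GFP+ ES cells 0 of the 13 passed 2-fold in either direction, where 5.48% of the 18580 genes compared were at least 2-fold higher and 32.2% lower. With the 50th percentile 7 were at least 2-fold higher and 0 lower, and in the deposited values 1 and 0. Against GFP- ES cells 4 were at least 2-fold higher in the MGE cells (Hdac2 3.81-fold, Chd3 3.64-fold, Chd5 2.41-fold and Rbbp4 2.36-fold) and 1 was lower (Mta3, 2.23-fold), and 0 were lower with the 50th percentile or in the deposited values.

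Genes listed as other methyl-CpG and CpG binding proteins or their relatives differed in both directions at the reported scaling. Whether each of them binds CpG was not checked here. Of 12 genes, 2 were at least 2-fold higher and 2 lower in GFP+ ES than in GFP- ES cells. The methyl-CpG repressor Zbtb33 was 2.33-fold and Mbd5 2.15-fold higher. Mbd5 lay within the control range on both ES arrays, and its difference in the deposited values was 0.61. Mbd4, a glycosylase that repairs T opposite G at CpG, was 2.40-fold and Mbd6 2.06-fold lower. The counts were 0 higher and 3 lower with the 50th percentile, and 0 and 2 in the deposited values. In MGE-GFP+ against GFP+ ES cells 1 gene was at least 2-fold higher (Mbd6, 2.81-fold), 1 was lower (Zbtb4, 4.16-fold) and the median was 0.47 against -0.36 over all genes. At least 2-fold higher were 9 and lower 1 with the 50th percentile, and 2 and 0 in the deposited values. Against GFP- ES cells Zbtb33 was 4.18-fold, Mbd5 3.33-fold and Kdm2b 2.20-fold higher and Zbtb4 2.97-fold lower in the MGE cells, with counts of 4 and 1 for the 50th percentile and 2 and 0 for the deposited values.

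Neither Tet2 nor Tet3 reached 2-fold as a gene in any comparison at the reported setting. The Tet3 probes, all for NM_183138, read 3091, 2873 and 2959 (A_52_P491273), 2740, 2961 and 3071 (A_55_P2175260) and 192, 242 and 161 (A_51_P199339) in GFP- ES, GFP+ ES and MGE cells. The brighter pair was flat in unscaled signal, and the dim probe lay within the control range on both ES arrays. The gene was 1.22-fold higher in GFP+ ES and 1.41-fold higher in MGE-GFP+ than in GFP- ES cells. The former, 0.29 log2 units, turned to -0.16 with the 50th percentile, and the latter, 0.50, lay between 0.43 and 0.80 over the alternatives. Tet3 is encoded at chr6:83362373-83457208.

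The Tet2 probes, both for NM_001040400, opposed each other. Probe A_55_P2081303 read 2277 in GFP- ES, 1444 in GFP+ ES and 1945 in MGE-GFP+ cells, lowest in GFP+ ES cells with a difference of -0.48 between the ES populations. Probe A_55_P2051405 read 158, 362 and 166, highest in GFP+ ES cells with a difference of 1.37, and lay within the control range on both ES arrays. Their mean, 0.45, therefore had the sign of the dimmer probe and turned to -0.48 when the brighter one stood for the gene. In MGE-GFP+ against GFP- ES cells the probes had the same sign, 0.62 and 0.32, and the gene was 1.39-fold higher. The gene lies at chr3:133463677-133545136.

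Genes that act with the Tet enzymes or excise their products differed in both directions. Of 18 genes, 1 was at least 2-fold higher and 3 lower in GFP+ ES than in GFP- ES cells, with a median of -0.08. Lower were the cytidine deaminase Apobec1 (363 and 60.3, 5.33-fold), the glycosylase Neil3 (3.45-fold), which is known from dividing cells, and the stress response gene Gadd45b (2.10-fold). In GFP+ ES cells these 3 genes lay within the control range. Over the alternatives their smallest log2 differences were -1.66, -0.97 and -0.44. The higher gene was the glycosylase Smug1 (2.06-fold). The counts were 0 higher and 5 lower with the 50th percentile. Tdg, the glycosylase that removes oxidised cytosine, read 555, 632 and 570 in GFP- ES, GFP+ ES and MGE cells.

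In MGE-GFP+ against GFP+ ES cells 4 of the same 18 were at least 2-fold lower and 0 higher, where 32.2% of all genes were lower and 5.48% higher. Gadd45g, a neurogenic relative of Gadd45b, read 2843 and 472 (4.64-fold lower). Gadd45b was 5.33-fold, Cxxc5, which recruits Tet2, 2.86-fold and the glycosylase Neil1 2.67-fold lower. Gadd45b and Neil1 lay within the control range on both arrays, and their differences in the deposited values were -0.74 and -0.36. The direction of these counts turned with the scaling, to 5 higher and 2 lower with the 50th percentile, and in the deposited values 0 were higher and 1 lower. Against GFP- ES cells 7 were lower, led by Gadd45b (11.2-fold), Apobec1 (10.3-fold), Gadd45g (6.45-fold) and Neil3 (4.27-fold), and 1 was higher, Idh1, which makes the cofactor of the Tet enzymes (2.06-fold). In the deposited values those counts were 4 lower and 0 higher. Gadd45b, Apobec1 and Neil3 lay within the control range on the MGE-GFP+ array. Their differences in the deposited values were -1.86, -1.82 and -0.86.

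Enzymes that supply the methyl group were mostly even. Of 14 genes of the S-adenosylmethionine and folate cycle, 2 were at least 2-fold lower and 0 higher in GFP+ ES than in GFP- ES cells, the folate enzymes Mthfd1 (2.22-fold) and Mthfd2 (2.11-fold). The lower count was 4 with the 50th percentile and 1 in the deposited values. Mat2a, which makes S-adenosylmethionine, read 5005, 4203 and 4743 in GFP- ES, GFP+ ES and MGE cells. From GFP+ ES to MGE cells its regulatory subunit Mat2b was 2.46-fold higher, and Shmt2 (3.25-fold) and Gnmt (2.04-fold) were lower, while with the 50th percentile 4 were at least 2-fold higher and 0 lower, and in the deposited values 2 and 1. Against GFP- ES cells Mat2b was 2.77-fold higher and Shmt2 (log2 difference -2.32), Mthfd2 (2.44-fold), Ahcy (2.06-fold) and Shmt1 (2.05-fold) were lower, where 1 gene was lower with the 50th percentile and 2 in the deposited values. The list medians near 0 between the ES populations depend on the scaling. With the 50th percentile they were -0.44 for this list, -0.27 for the new-site partners, -0.52 for the Tet partners and -0.17 for the list of CpG binding proteins and relatives, where the reported setting gave 0.0017, 0.17, -0.08 and 0.27.

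**Figure D4:**
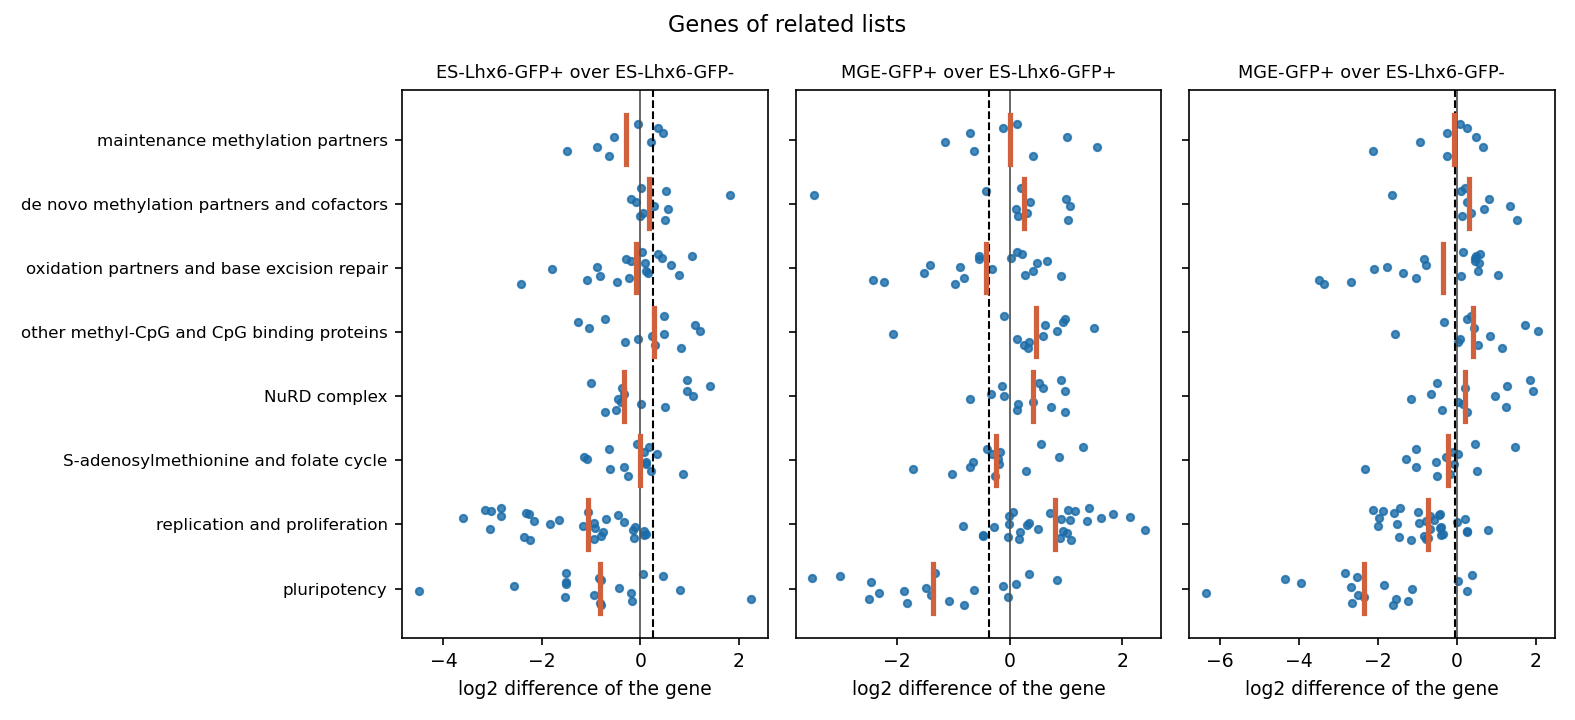
Log2 difference of each gene on the x axis for 8 related lists on the y axis, in the 3 comparisons, with 1 point per gene (bounds plotted at the bound, vertical offset only to separate points), the list median as a bar and the median of all genes as a dashed line. The replication list has a median of -1.06 in GFP+ ES over GFP- ES cells and of 0.81 in MGE-GFP+ over GFP+ ES cells, while the maintenance partners have -0.29 and 0.01.

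Between the GFP+ populations most members were under 2-fold. In MGE-GFP+ against GFP+ ES cells 0 of 8 were at least 2-fold higher and 1, Dnmt3l, was lower, where 32.2% of all genes were lower and 5.48% higher, and its sign does not hold at every scaling. At 4-fold or more 0 members passed in either direction, beside 0.533% of genes higher and 13.5% lower. With the 50th percentile 26.0% of all genes were at least 2-fold higher and 17.1% lower, and in the deposited values 6.08% and 8.09%. For Dnmt3b, Uhrf1, Tet2 and Tet3, 4 of the 5 genes with several probes, the probes had opposite signs at the reported scaling, whereas in the deposited values those of Dnmt3b and of Tet3 had 1 sign and those of Mbd2 did not. The range over the probes of a gene had a median of 1.36 log2 units over the 5 genes, against 0.44 between the ES populations. The replication list had 11 of 28 genes at least 2-fold higher in the MGE cells and 0 lower (median 0.81), led by Rrm2 (197 and 800, 5.26-fold), Mcm2 (4.41-fold), Cdk1 (at least 3.57-fold) and Mcm3 (3.09-fold), and 18 were higher with the 50th percentile.

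Against GFP- ES cells, MGE-GFP+ cells had 2 of 8 members at least 2-fold lower, Dnmt3l and Uhrf1, where 17.2% of the 17025 genes compared were, and 0 higher, where 9.90% were. At 4-fold or more 1 member (Dnmt3l) was lower, beside 6.80% of genes, and 0 were higher, beside 1.69%. With the 50th percentile 17.9% of all genes were at least 2-fold higher and 12.6% lower. All 5 genes with several probes had probes of 1 sign here at the reported scaling, but in the deposited values those of Dnmt3b lay at -0.036, 0.07 and -0.015. The comparisons share arrays, so the same 2 members in the comparison of the ES populations and in this one both rest on the GFP- ES array. The replication list had 9 of 29 genes at least 2-fold lower and 0 higher (median -0.72), led by Top2a (4.34-fold), Gins2 (3.96-fold), Mcm3 (3.90-fold) and Ccnb1 (3.65-fold).

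Among the 15541 genes well above background on all 3 arrays, the profiles nearest to that of Uhrf1, by the root mean square distance of the levels centred over the 3 arrays, were those of the ion channel gene Tpcn1 (0.017 log2 units), Tmem97, a sterol-regulated membrane protein gene (0.031), and the ceramide synthase gene Cers2 (0.037), and 31 genes lay within 0.1. For Dnmt3b they were the ribosome biogenesis gene Emg1, the ribosomal protein gene Rpl6 and Ormdl2, with 536 genes within 0.1. With 3 arrays a near profile is common, and nothing about shared control follows from it.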

How the data were processed

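RNA of 3 sorted populations was measured on 1 array each, all on 1 slide and in 1 scan, which cannot separate batches, and precision is limited by having 1 array per group. The files the authors deposited hold background-subtracted spot intensity from Agilent Feature Extraction 10.7.3.1 (per the file headers), unscaled between arrays, and a table of log2 values whose processing is not stated. These deposited log2 values differed by a median of 0.032 to 0.039 from quantile-normalized log2 median intensity, so their scale is log2, with no centring.

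Outlier-flagged spots (137, 135 and 98) were left out, repeat spots averaged, and the 75th percentile of each array subtracted from log2 intensity. A gene was the mean of its probes with a value, and a probe not well above background on either array of a comparison had none. Probes not well above background on an array were raised to the lowest detected value, which gives bounds ("at least"), as means of normalized log2 values. Probes were named through RefSeq accessions, and 26582 of 55681 matched. The scanner files used here give median and not mean spot signals, so normexp (limma 3.58.1, R 4.3.3, offset 50) ran on medians. Calls were tested on simulated data. Python 3.11.15, numpy 2.4.6 and pandas 2.3.3 were used.

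All members were named. Of each of 19 lists, up to 4 genes per direction and comparison with the largest difference of at least 2-fold were to be named, and for marker lists of cell types and sex, pluripotency and germline genes not all of these are given. List genes given with levels below 2-fold were added for their role, after their values were seen. Members and lists were chosen with earlier results of these data known. The labels name an amplification kit and array format that differ from those in the methods. Some genes of these lists are not reported here and were left out of the counts and medians of their lists.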

Additional observations from a re-analysis of the deposited data

How the results depend on the processing

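With no replicates nothing could be left out, and the 2 SD of repeat spots is the only error. No paired analysis was possible because each population has 1 array. Of 213 member differences under the alternatives, 138 moved by less than 1 SD of repeat spots, 69 moved further and 6 reversed, counting as reversed a change of sign from a reported difference beyond 2 SD of repeat spots for the number of probes of the gene. Another 8 smaller differences changed sign, Dnmt1 in GFP+ ES over GFP- ES cells (0.23 to -0.22 with the 50th percentile, -0.04 when centred on the median of all genes), Dnmt1 (-0.08 with quantile normalization) and Dnmt3a (-0.04 with quantile normalization, -0.09 in the deposited values) in MGE-GFP+ over GFP+ ES cells, and Dnmt3b in MGE-GFP+ over GFP- ES cells (-0.21 to 0.10 with the 50th percentile, 0.09 with quantile normalization and 0.0063 in the deposited values). Those that reversed were Tet2 in GFP+ ES over GFP- ES cells (-0.48 with the brightest probe and with a floor at the 95th percentile of control probes), Tet3 there (-0.16 with the 50th percentile), Dnmt3l in MGE-GFP+ over GFP+ ES cells (0.57 with quantile normalization, 0.48 in the deposited values) and Mbd2 there (0.25 with the 50th percentile). Members at least 2-fold lower in GFP+ ES over GFP- ES cells went from 2 to 1 with the control floor, which leaves Dnmt3l without a value, and to 1 at 4-fold, and rose to 3 with quantile normalization and with the brightest probe, where Dnmt3b passed (-1.32 and -1.36). Of all genes, 5.97% were as much lower with the control floor, 15% with quantile normalization and 6.82% with the brightest probe. In MGE-GFP+ over GFP+ ES cells those lower went from 1 to 0 with the 50th percentile, quantile normalization, normexp, the deposited values, the control floor, 4-fold and centring on the median of all genes (chosen after seeing the data), and those higher from 0 to 1 with the 50th percentile (Uhrf1, 1.02), quantile normalization (Dnmt3b, 1.41) and the brightest probe (Dnmt3b, 1.25). In MGE-GFP+ over GFP- ES cells the members lower went from 2 to 1 with the control floor and at 4-fold, and those higher from 0 to 1 with the 50th percentile (Dnmt3a, 1.06). With the brightest probe that lower count stayed at 2 but held Mbd2 (-1.01) in place of Uhrf1 (-0.87). Of all genes in this comparison, 10.6% were lower with the control floor and 17.1% with the brightest probe. With the 50th percentile 17.9% were higher. The cause of these changes in member values and counts was not tested. Folds of probes within the control range, among them Dnmt3l in both GFP+ populations, are limited by signal over background. The 138 differences that moved by less than 1 SD include some that could hardly move. All 15 member probes were well above background on all 3 arrays and had no outlier flag. Keeping outlier spots or requiring that background call therefore left them nearly unchanged by construction. For Dnmt1, Dnmt3a and Dnmt3l the brightest probe is the only probe.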

Other observations

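Germline genes that promoter methylation is known to silence were mostly near background. Of 15 such genes on the arrays, 4, 3 and 3 were above the control range on the GFP- ES, GFP+ ES and MGE-GFP+ arrays. Between the ES populations 2 of 13 genes with a value were at least 2-fold lower in GFP+ ES cells, Tex19.1 (575 and 184, 2.76-fold) and Mael (2.31-fold). Tex19.1 and Mael lay within the control range in GFP+ ES cells. Another 4 were at least 2-fold higher (Asz1, Tdrd1, Slc25a31 and Hormad1), all within the control range on both arrays, and 0 were in the deposited values, while 24.0% of all genes were as much higher at the reported setting. In MGE-GFP+ cells Tex19.1, a placenta and germ cell gene, was not well above background and was at least 32.5-fold lower than in GFP- ES cells. There 5 of 10 genes with a value were at least 2-fold lower and 0 higher, where 17.2% of all genes were lower, and against GFP+ ES cells 7 of 12 were lower and 0 higher, where 32.2% of all genes were lower. In the deposited values 2 were lower there, with a list median of -0.35 in place of -1.72. Taf7l read 4275, 2807 and 2001 on the GFP- ES, GFP+ ES and MGE-GFP+ arrays.

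Microglia and endothelial genes were few above the control range. For microglia these were 2, 2 and 3 of 10 genes, and for endothelium 2, 2 and 1 of 8, on the GFP- ES, GFP+ ES and MGE-GFP+ arrays. The microglial gene Itgam read 1455, 1685 and 1099. In GFP+ ES over GFP- ES cells 3 of 8 microglial and 3 of 7 endothelial genes with a value were at least 2-fold higher and 0 lower. In the deposited values 2 and 1 were higher, and 24.0% of all genes were as much higher at the reported setting. In MGE-GFP+ over GFP- ES cells 5 of 10 microglial genes were higher and 0 lower, and 2 of 7 endothelial genes were higher and 1 lower. In MGE-GFP+ over GFP+ ES cells 2 microglial genes were at least 2-fold higher and 1 lower. Cx3cr1 was at least 8.04-fold higher on 1 of its 2 probes, the other not being well above background on either array, C1qc was at least 2.35-fold higher and Trem2 2.04-fold lower (log2 difference -1.03, but 0.52 in the deposited values), all within the control range on both arrays. Of 7 endothelial genes with a value 1 was higher, the receptor Kdr (at least 4.27-fold), and 4 were lower, Flt1 (at least 12.2-fold), Cldn5 (at least 5.53-fold), Esam (3.99-fold) and Pecam1 (2.45-fold), of which 2 were as much lower in the deposited values.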
